A study of Mus musculus with 2 samples.

Results

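CTCF summits that lie close together on the genome were collected into tight clusters, runs of at least 4 summits in which each summit was at most 2 kb from the next. The summit is the base of strongest signal in a peak. Clusters were selected on summit positions alone, in the authors' optimal peak list, on chromosomes 1 to 19, after any summit under 20 bases from the one before had been dropped. The choice gave 1532 summits in 356 clusters, out of 71756 summits on these chromosomes and 73465 peaks in the whole list. The other 70224 summits lay alone or in runs of 2 or 3. How close and how many the summits of a cluster are is therefore fixed by the choice and is not a result.

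The data are CTCF ChIP-seq of whole newborn mouse intestine (postnatal day 0, strain B6NCrl, sex not collected). There was 1 group with 2 libraries, called biological replicates 1 and 2. Both carry the same sample and donor label, and the tissue was powdered intestine pooled over several dissections, so their spread may be technical. No treatment, genotype or other condition was compared.

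CTCF, which has a row of zinc fingers, recognises a long, directional DNA motif. Cohesin that extrudes chromatin loops is halted at CTCF sites according to the strand of the motif, and CTCF sites insulate enhancers from promoters. Several of the best known insulators, such as the imprinting control region upstream of H19 and the end of the immunoglobulin heavy chain locus, hold several CTCF sites in a row.

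The cluster with the most summits lay on chromosome 12 beyond the constant genes of the immunoglobulin heavy chain locus (Igh), at chr12:113216122-113224418 (mm10). This stretch was intergenic, 30.412 kb from Igha, the constant gene of IgA, and 30.192 kb from the nearest start of a protein-coding gene, Tmem121. Its 10 summits all held a CTCF motif, and all 10 motifs were on the plus strand. The sites are shown because they carry the result: capitals mark the 19 bases of the motif, on the motif's own strand, and 5 flanking bases on each side are in lower case. The genome sequence is that of the mouse reference, mm10.
Igh summit 1: tggagAGGCCACCAGGGGGTGCACaagca
Igh summit 2: gcaatTGGACACTAGGGGGCATTTaagct
Igh summit 3: tctacTGACCACACGGTGGCAGCAgagcg
Igh summit 4: gcatcTAGCCACCAGGGGGCACATgagct
Igh summit 5: accagAGGCCACATGAGGCCAGTAgagtc
Igh summit 6: gcatcTGTCCACCAGGGGGCACCTgagca
Igh summit 7: accaaTGGCCACATGGTGGCAGCAgagat
Igh summit 8: acacaTGGTCACCAGGGGGCGCACgagcc
Igh summit 9: ggctaTGCTCACACGGGGGCAGCAgagtt
Igh summit 10: cacccAGTCCTCTAGAGGGAGCCCctgag

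All 10 motifs differed from each other. Over their 45 pairs the median identity was 63.2% of the 19 bases, and the pairs ranged from 42.1% to 89.5%. For comparison, motif pairs within a cluster had a median identity of 57.9% over 919 pairs, with 0 identical pairs. Motif pairs from different clusters had a median of 52.6% over 362459 pairs, which share sites and are not independent, and 119 of them were identical. Neighbouring Igh summits shared 0% of the 12-base words in the 201-base windows around them.

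Summits 7 and 8 of the Igh array lay 204 bases apart inside a single peak interval of 540 bases. Each had a motif of its own, as the stretch chr12:113222208-113222501 on the plus strand shows, with both motifs in capitals.
Igh summits 7 and 8: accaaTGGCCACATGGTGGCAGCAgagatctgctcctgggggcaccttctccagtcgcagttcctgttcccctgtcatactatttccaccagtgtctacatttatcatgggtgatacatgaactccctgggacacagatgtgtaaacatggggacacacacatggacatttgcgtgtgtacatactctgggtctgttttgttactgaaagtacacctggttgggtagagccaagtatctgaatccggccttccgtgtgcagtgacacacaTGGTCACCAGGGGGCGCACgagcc

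The cluster upstream of H19, the maternally expressed noncoding RNA, lay at chr7:142579269-142582009, 1.126 kb from the start of the gene. It overlaps the region known as the imprinting control region, where CTCF bound to the maternal copy separates Igf2 from its enhancers. Which of its summits lie inside that region was not examined. Of its 5 summits 4 held a motif, all on the minus strand. The best match at the fourth summit scored 8.34 and was under the threshold of 9.53, and it was on the same strand. The site of each summit is given on the minus strand, with the best 19-base match in capitals.
H19 summit 1: cacaaCCACCACAAGGTGACAGCAcagac
H19 summit 2: agacgATGCCGCGTGGTGGCAGTAcaata
H19 summit 3: ggatgCTACCGCGCGGTGGCAGCAtactc
H19 summit 4: cagggTTGCCGCACGGCGGCAGTGaagtc
H19 summit 5: gggagTTGCCGCGTGGTGGCAGCAaaatc

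The 4 called H19 motifs had a median identity of 76.3%, from 57.9% to 89.5% over 6 pairs. Signals at the 5 summits were 85.6, 210, 221, 219 and 84.4. The middle 3 were thus the strong ones and the outer ones the weak ones. Summits 4 and 5 were 201 bases apart, and chr7:142581783-142582055, read on the minus strand, holds the best matches of both in capitals.
H19 summits 5 and 4: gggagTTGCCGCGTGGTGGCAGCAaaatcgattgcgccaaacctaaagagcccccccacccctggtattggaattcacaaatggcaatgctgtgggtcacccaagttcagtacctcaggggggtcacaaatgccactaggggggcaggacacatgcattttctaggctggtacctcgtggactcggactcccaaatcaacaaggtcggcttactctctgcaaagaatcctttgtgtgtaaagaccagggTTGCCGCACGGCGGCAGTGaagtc

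A cluster of the opposite kind lay over the start of Bhlhe40, a basic helix-loop-helix repressor linked to the circadian clock, at chr6:108658283-108663167. It had 7 summits and 0 motifs. Its strongest summit had a signal of 456, and the 201 bases around it, chr6:108661580-108661780 on the plus strand, hold 9 CG pairs, here in capitals. The observed over the expected number of CG pairs was 0.520 in this window. That is below the median of 0.648 for cluster summits at promoters and of 0.541 for other summits at promoters. The best match in this window scored 8.26, under the threshold.
Bhlhe40 strongest summit: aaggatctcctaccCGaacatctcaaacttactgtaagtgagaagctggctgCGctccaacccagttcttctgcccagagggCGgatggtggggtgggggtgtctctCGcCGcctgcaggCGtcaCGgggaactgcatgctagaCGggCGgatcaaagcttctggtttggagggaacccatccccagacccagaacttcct

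The lists give no read counts, so the depth behind a summit is unknown. Peak signal is the authors' value for the pooled list, used here to describe and rank summits within the optimal list. The optimal list ranged from 4.48 to 756 with a median of 76.0, and each replicate's list held 300000 peaks. A replicate's own value for a summit is its rank by signal in that list, 1 being the strongest. Shares are given with 95% Wilson intervals, which cover the counting of summits or clusters only. Summits of a cluster share their locus and are not independent, so no test was made between cluster summits and the rest, and the values are set side by side.

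A larger share of cluster summits than of other summits lay near gene starts. A transcription start site (TSS) was at most 1 kb from 715 of 1532 cluster summits, 46.7% (44.2 to 49.2), where all summits of these chromosomes gave 21.8% and the summits outside clusters 21.2% (20.9 to 21.5). By length of the run the share was 17.2% for lone summits, 31.5% in runs of 2, 41.7% in runs of 3 and 47.0% in clusters of 4. Clusters of 5 or more were at 45.8%, inside the interval of clusters of 4. It was higher in clusters than outside them on 19 of 19 chromosomes. With only the peaks above the median signal 28 clusters were left, and 29 of their 121 summits were at promoters, 24.0% (17.2 to 32.3), an interval that includes the 19.9% of the other summits. The median distance to the nearest TSS was 1.19 kb for cluster summits and 6.20 kb for the others.

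Introns held 24.0% of cluster summits and 41.0% of the others. Intergenic sequence held 23.8% of cluster summits and 32.6% of the others. Coding sequence held 2.28% and 1.85%, and 3' untranslated regions 1.63% and 1.70%, both with overlapping intervals. A TSS lay inside the span of 223 of 356 clusters (62.6%), and the TSSs of 2 or more genes lay inside 76 of them. Every summit was at a promoter in 62 clusters, and in 100 clusters none was.

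The sequence around cluster summits was richer in CpG, the dinucleotide that is kept where promoters stay unmethylated. The ratio of observed to expected CpG over 201 bases had a median of 0.390 at cluster summits and 0.215 at the others. It was 0.648 at the cluster summits that lay at promoters and 0.241 at those that did not, and promoter summits outside clusters had 0.541. The median GC content was 55.2% at cluster summits and 49.3% at the others.

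A smaller share of cluster summits than of other summits held a called CTCF motif. The motif was a 19-base CTCF matrix trained on strong peaks outside clusters on the even-numbered chromosomes. It was searched for on both strands within 100 bases of the summit. It was called at 853 of 1532 cluster summits, 55.7% (53.2 to 58.1), where all summits of the odd chromosomes gave 72.6% and those outside clusters 73.0% (72.6 to 73.4). On the odd chromosomes alone, which did not train the matrix, the cluster share was 57.0% (53.8 to 60.2). By length of the run the share was 75.4%, 66.7%, 62.6% and 55.1% for 1, 2, 3 and 4 summits, and 57.2% for 5 or more. The cluster share was below that of the other summits on 19 of 19 chromosomes. On the even ones the other summits include those that trained the matrix. With only the peaks above the median signal it was 79.3% (71.3 to 85.6), an interval that meets that of the other summits, 85.9% (85.4 to 86.4). In windows midway between neighbouring cluster summits the motif was called in 38 of 899, 4.23%. Midway between neighbours in runs of 2 or 3 on the odd chromosomes it was called in 165 of 4024, 4.10%. The threshold was set so that 5% of windows 1 kb from the training summits were called.

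The motif share was lower in clusters at promoters and away from them. At promoters 40.0% of cluster summits held a motif and 53.1% of the others did. Away from promoters the shares were 69.4% and 78.6%. A cruder search gave the same order: the word AGGGGGC, the word AGGTGGC, the word AGATGGC or the word AGAGGGC, on either strand, was within 100 bases of 740 cluster summits, 48.3% (45.8 to 50.8), against 56.3% over all summits. These words are parts of the core of the motif and not a separate motif.

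**Figure D1:**
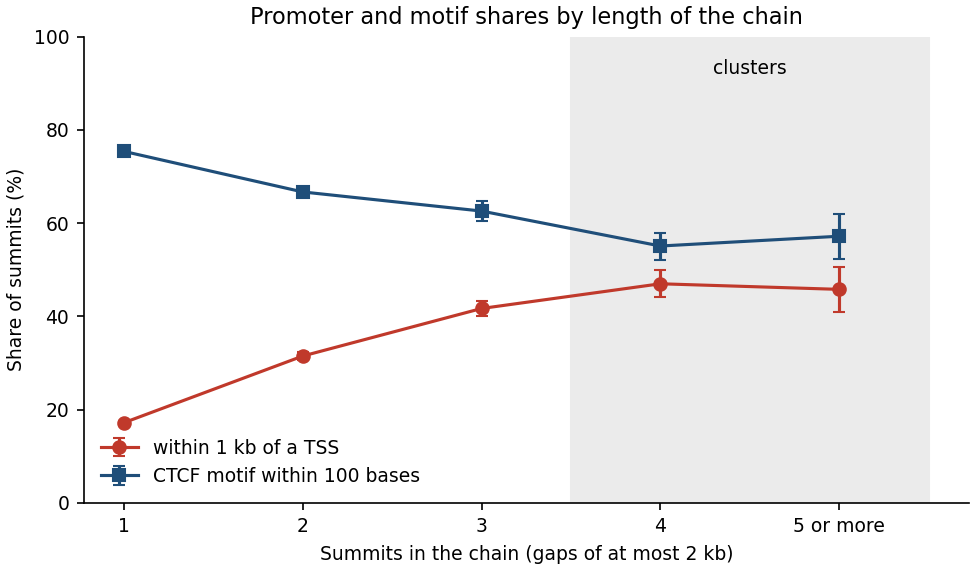
Share of summits within 1 kb of a TSS (circles) and share with a CTCF motif within 100 bases (squares), in percent on the vertical axis, by the number of summits in the run on the horizontal axis; bars are 95% Wilson intervals and the shaded columns are the clusters. The promoter share goes from 17.2% to 47.0% between lone summits and clusters of 4, and the motif share from 75.4% to 55.1%.

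Signal at cluster summits was lower in the median, and a larger share of the stronger ones held a motif. Cluster summits had a median signal of 61.6, with quartiles of 28.8 and 187, and the others a median of 76.2, with quartiles of 34.7 and 225. Of the cluster summits 44.2% were above the median of all summits. Among those above it 75.6% held a motif, against 86.1% of the other summits above it. Among those at or below it 39.9% of cluster summits and 59.8% of the others held a motif. The share was thus lower in clusters on both sides of the median, and the part that signal has in it was not tested further.

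Within a cluster the summits were far from equal, though a fall in signal from rank to rank follows from ranking by signal. Summits outside clusters were not grouped and ranked in this way, so the values are not shown to be particular to clusters. The strongest summit of a cluster had a median signal of 281, the second 103, the third 46.7 and the fourth 26.5. The strongest was a median of 10.2 times the weakest, and this ratio ran from 1.21 to 100. Of the strongest summits 76.1% held a motif, of the second 60.4%, of the third 46.6% and of the fourth 42.4%. The share at promoters did not follow this order, with 42.7% for the strongest and 47.5% for the fourth, and overlapping intervals. All summits were above the median signal in 21 clusters, and none was in 39.

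**Figure D2:**
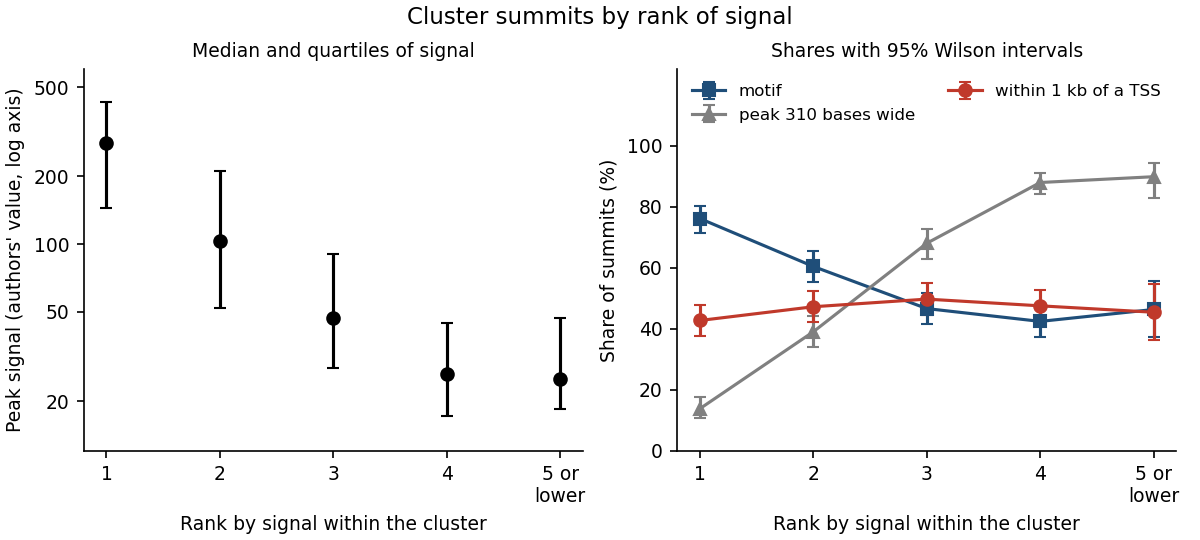
Cluster summits by their rank of signal within the cluster. Left, the authors' peak signal on a log axis, as median and quartiles over 356 clusters for ranks 1 to 4 and 108 summits of rank 5 or lower; right, the share of summits in percent with a motif (squares), with a peak exactly 310 bases wide (triangles) and within 1 kb of a TSS (circles), with 95% Wilson intervals. Signal falls from a median of 281 to 26.5 between ranks 1 and 4 and the motif share from 76.1% to 42.4%, while the share of 310-base peaks climbs from 13.8% to 87.9%. The fall in signal follows from the ranking, and summits outside clusters were not ranked.

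Many weak summits were in peaks of a standard width. Peaks of exactly 310 bases had their summit at a fixed offset, and 840 of 1532 cluster summits were in such peaks, 54.8% (52.3 to 57.3). This was close to the 50.8% of all summits and the 50.7% (50.3 to 51.1) of the summits outside clusters. Such peaks made up 13.8% of the strongest and 87.9% of the fourth summits of clusters, and summits outside clusters were not ranked. In 310-base peaks 40.1% of cluster summits and 60.1% of the others held a motif, and in peaks of another width 74.6% and 86.2%.

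The number of motifs per cluster split by promoter. Of the 100 clusters with no summit at a promoter 44 had 4 or more motif summits, 44.0% (34.7 to 53.8), and 0 had none, which allows up to 3.70%. Of the 256 clusters with a promoter summit 28 had 4 or more, 10.9% (7.68 to 15.4), and 24 had none. Over all clusters 72 had 4 or more motif summits, and in 56 every summit held a motif. Clusters thus included arrays of motif sites away from promoters and groups at promoters of which only some summits held a called motif.

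**Figure D3:**
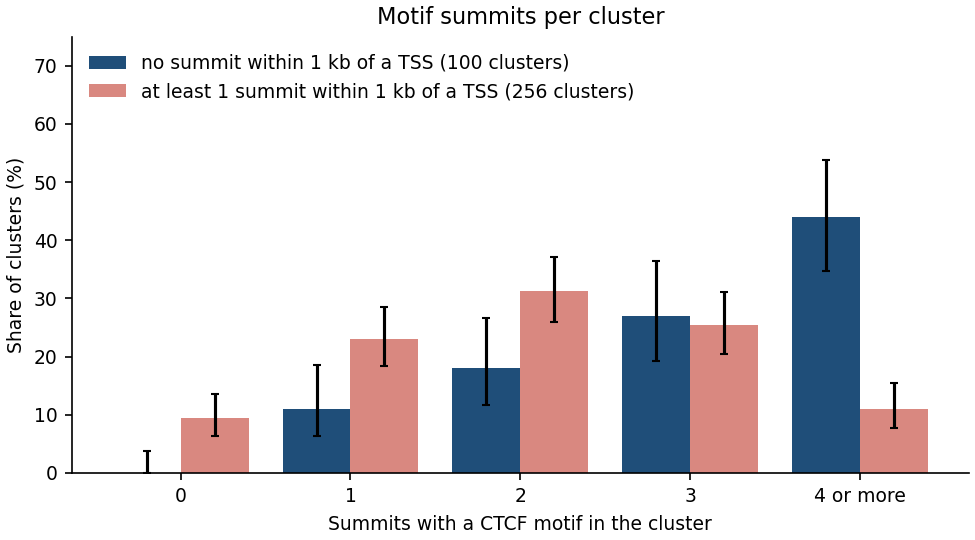
Share of clusters in percent (vertical axis, from 0) by the number of their summits with a CTCF motif (horizontal axis), for the 100 clusters with no summit within 1 kb of a TSS (dark bars) and the 256 with at least 1 (light bars); error bars are 95% Wilson intervals. Clusters with 4 or more motif summits are 44.0% of the first kind and 10.9% of the second.

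The strands of neighbouring motifs were read because the direction of the motif decides which side of a loop it can anchor. In 406 neighbouring pairs both summits held a motif, and 214 of these pairs, 52.7% (47.9 to 57.5), were in tandem, on the same strand. Pairs pointing at each other made up 20.7% (17.0 to 24.9) and pairs pointing away 26.6% (22.5 to 31.1). Neighbours in runs of 2 or 3 summits gave 55.4%, 19.1% and 25.5%, each inside the cluster intervals. Of the 72 clusters with 4 or more motifs, 8 had all of them on 1 strand, 11.1% (5.74 to 20.4). Whether this is more than strands drawn at random would give was not tested. These 8 included the Igh, H19, Bcl6 and Myzap clusters. A further 3, chosen for this after their values were seen, lay in Ksr2, a kinase scaffold, near Cldn4, a tight junction claudin, and in Kdm2a, a histone demethylase.

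Motif sites in repeats had a sequence of their own. Of 853 motif sites at cluster summits 196 lay in bases that the reference marks as repeats, 23.0% (20.3 to 25.9), and at summits outside clusters 29.7% (29.2 to 30.2) did. Of the 196 repeat sites 143 held GAAGAGG, read along the motif strand within the 19 bases, 73.0% (66.3 to 78.7). Of the 657 other sites 7 held it, 1.07%. Outside clusters the shares were 65.9% and 0.792%, so this is not a mark of clusters. The word was chosen after the sites had been seen.

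The cluster nearest Col9a2, a chain of collagen IX, shows such sites. It lay at chr4:121028881-121033228, 6.157 kb from a start of the gene, with signals of 354, 36.9, 117 and 116. The last 3 sites were in marked repeats and held the word, and pairs of the 4 motifs were up to 94.7% identical. Capitals mark the motif.
Col9a2 summit 1: aataaTGACCACGAGGTGGCGCCAccgca
Col9a2 summit 2: cctgcATGCCAGAAGAGGGCACCAgatct
Col9a2 summit 3: cctgtATGCCAGAAGAGGGCAACAgatcc
Col9a2 summit 4: tagtgAGGCCAGAAGAGGGCACTGgatcc

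The strongest summit of this cluster was the first, the only site of the 4 outside a marked repeat. In 10 clusters at least 3 motif sites were in repeats. Copied sequence over the whole window was rare: 5 of 1153 neighbouring summit pairs over 200 bases apart shared at least 20% of their 12-base words.

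Spacing had a floor. The smallest gap between any neighbouring summits of the list was 199 bases, so closer sites cannot be seen, and dropping summits under 20 bases apart removed 0 of them. In clusters 120 of 1176 gaps, 10.2% (8.60 to 12.1), were under 250 bases, and only 7 (0.595%) were from 250 to 300 bases. Runs of 2 or 3 summits were similar, with 880 of 9201 gaps (9.56%) under 250 bases and 0.391% from 250 to 300. In 100 of the 120 short pairs the second summit was in a peak 310 bases wide. Both summits held a motif in 10.8% of the short pairs (6.44 to 17.7) and in 37.2% of the wider ones (34.4 to 40.2). With every summit under 300 bases after its neighbour dropped, an alternative chosen after seeing the data, 267 clusters were left, with 40.9% of summits at promoters and 61.7% with a motif. The median gap was 953 bases and the median span 3256 bases, from 691 to 8437.

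**Figure D4:**
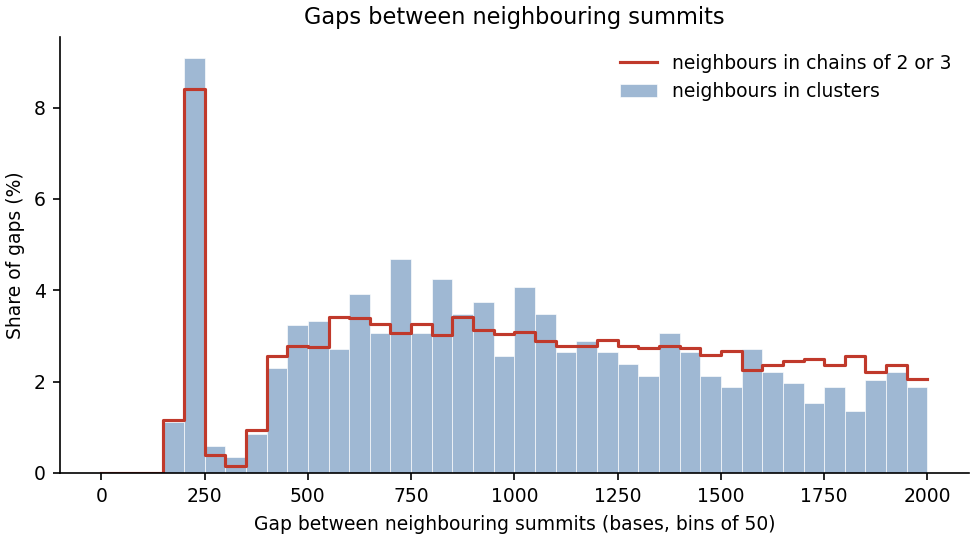
Gap between neighbouring summits in bases (horizontal axis, bins of 50) and share of gaps in percent (vertical axis), for neighbours in clusters (bars) and in runs of 2 or 3 summits (line). No gap is under 199 bases. Of the cluster gaps 10.2% are under 250 bases, and of the gaps in the shorter runs 9.56%. In both groups few lie between 250 and 400.

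Most clusters were at the lower limit of the choice. There were 283 clusters with 4 summits, 52 with 5, 13 with 6, 5 with 7 and 1 each with 8, 9 and 10. Just outside the choice were 1158 runs of 3 summits, of which 22 had a further summit within 2100 bases, the nearest at 2007. Just inside it were 47 gaps over 1900 bases, the widest 1997.

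Clusters were not evenly spread. They took 0.874% of the summits of chromosome 1 and 3.47% of those of chromosome 19, with a median of 2.06% over 19 chromosomes. Within 50 kb of a cluster summit was a median of 2 protein-coding TSSs, and of another summit 1.

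Both the clusters and their single summits were looked for in each of the 2 libraries. Of 356 clusters 217 overlapped a cluster made the same way from the strongest 73465 peaks of replicate 1, and 209 did so for replicate 2. Both libraries gave 171, 48.0% (42.9 to 53.2), and neither gave 101. Clusters of 4 came back in both in 42.8% of cases and clusters of 5 or more in 68.5%. Single cluster summits were matched within 100 bases in both lists of strongest peaks in 75.1% of cases (72.8 to 77.2), and other summits in 83.9% (83.6 to 84.1). With all 300000 peaks of each replicate the shares were 90.5% and 97.5%.

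The Igh array was found with 10 summits in either replicate alone and in the conservative list. Its signals from summit 1 to summit 10 were 328, 254, 466, 281, 287, 168, 372, 132, 213 and 149, all above the median of the list. Summit 3 was the strongest and ranked 1968 in replicate 1 and 3922 in replicate 2. Summit 8, the weakest, ranked 28052 and 25415. All 10 ranked among the strongest 73465 peaks of either library.

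The second cluster by size lay at chr10:59289260-59296501, 26.795 kb from the nearest protein-coding start, that of P4ha1, a subunit of the enzyme that hydroxylates proline in collagen. It had 9 summits with signals of 291, 54.3, 47.5, 7.43, 543, 17.7, 316, 227 and 550. Weak summits lay between strong ones, 3 of them in a row, and 7 of the 9 held a motif, 3 on the plus and 4 on the minus strand. In the conservative list and with replicate 1 left out its longest run had 4 summits, and with replicate 2 left out 8. Its motif sites are shown as an array of mixed strands, with the motif in capitals on its own strand.
P4ha1 summit 1, plus: tcagaCTGCCACATGGTGGCGCTGtaaca
P4ha1 summit 2, minus: cgccaCCACCAACAGGTGACAGTGgcacg
P4ha1 summit 5, minus: aagtgCCACCACAAGGTGGTGTGGgttca
P4ha1 summit 6, minus: cagcaCCACCACTTGGTGGCAAAAgcaca
P4ha1 summit 7, minus: tcccaGCACCACCAGATGGCAGTGtggac
P4ha1 summit 8, plus: ttcccATGCCACCAGGGGGCAGTGcagag
P4ha1 summit 9, plus: tatccAGGCCACCAGGTGGCAGTGttgtc

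Summits 7 and 8 of the P4ha1 cluster pointed away from each other and were 372 bases apart in a single peak interval. None of its 7 motifs was in a marked repeat, and their median identity was 63.2%.

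Tle3, a Groucho corepressor, had the widest cluster, 8437 bases with 8 summits at chr9:61366274-61374711. The signals were 50.3, 65.8, 98.1, 18.7, 252, 78.2, 76.9 and 28.7. The first 3 summits lay upstream and all held a plus-strand motif, and the last 5 were at promoters. Its CpG ratio had a median of 0.773, above the 0.648 of all cluster summits at promoters. It had 3 summits in the conservative list and with replicate 1 left out, too few for a cluster, and 8 with replicate 2 left out.

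The 5 clusters of 7 summits all overlapped genes. At Bhlhe40 the signals were 20.9, 165, 23.8, 24.1, 8.66, 456 and 46.8, so the strong summits were the second and the sixth. Tgif1, a homeobox repressor of TGF-beta targets, had all 7 summits at promoters, with signals of 257, 22.9, 118, 14.1, 7.60, 55.0 and 26.6. With replicate 2 left out its longest run had 3 summits, and with replicate 1 left out 4. Zfp36l2, which promotes decay of mRNA, shared a cluster with Thada. There 2 of 7 summits held a motif, and the strongest, with a signal of 420, lay in a 3' untranslated region. Cntnap1, a protein of the paranodes of myelinated axons, shared its cluster with Ccr10, a chemokine receptor. Its strongest summit, with a signal of 480, was in coding sequence, and its weakest, with 4.78, had no peak within 100 bases in either replicate's list.

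Pdgfa and Pdgfra, a growth factor that signals to mesenchyme and its receptor, both had a cluster at their start. Pdgfa had 7 summits at chr5:138995116-139000366, of which 2 held a motif, with signals of 32.4, 58.8, 223, 28.9, 28.6, 22.6 and 27.6. Only the third was above the median of all summits. Pdgfra had 5 summits at chr5:75153544-75157260, all at promoters, with signals of 45.3, 19.6, 296, 358 and 335. The 3 strong ones were side by side and each held a motif, on the plus, minus and minus strands. Pdgfra had 3 summits in a run with replicate 2 left out and 5 with replicate 1 left out, and for Pdgfa those runs had 6 and 4. In the conservative list the runs had 3 summits at Pdgfra and 2 at Pdgfa, too few for a cluster.

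**Figure D5:**
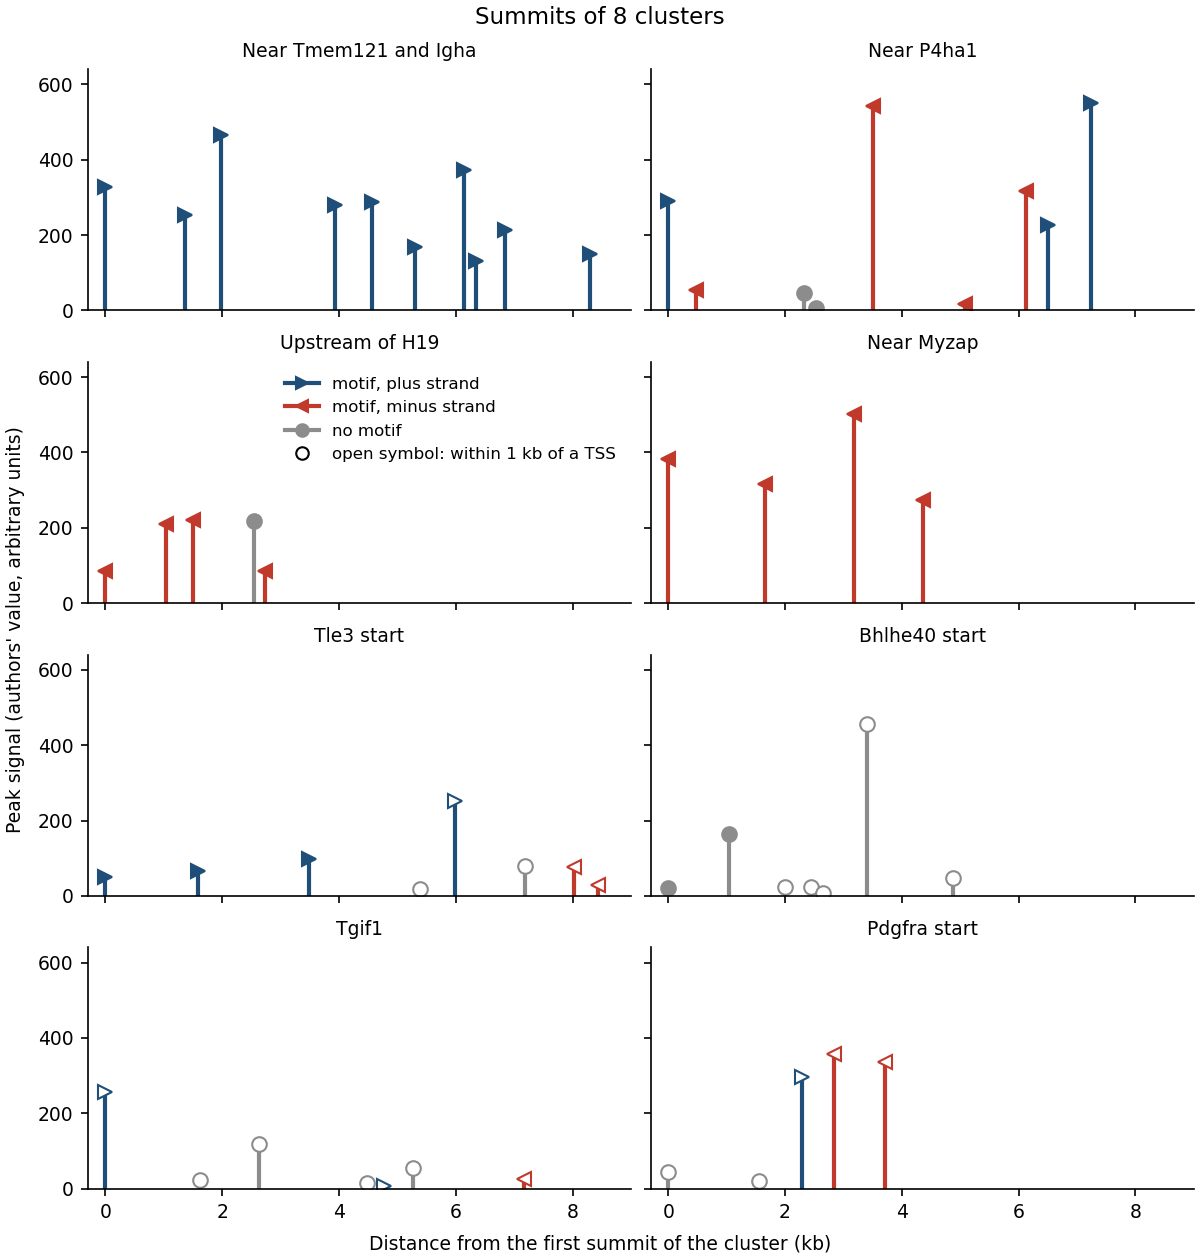
Summits of 8 clusters by distance in kb from the first summit (horizontal axis) and the authors' peak signal (vertical axis, from 0); right-pointing symbols are motifs on the plus strand, left-pointing ones motifs on the minus strand, circles summits without a motif, and open symbols summits within 1 kb of a TSS. The 10 Igh summits near Tmem121 all point right and the 4 Myzap summits all point left, while the 7 Bhlhe40 summits hold no motif and only 2 of them exceed a signal of 100.

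Other clusters with many summits or motifs had few or no promoter summits. Rbfox3, the neuronal splicing factor NeuN, held 6 intronic summits with signals from 51.7 to 523, of which 5 had a motif. Bcl6, a transcriptional repressor in germinal centre B cells, held 6 intronic summits with signals from 51.1 to 492, and its 4 motifs were all on the plus strand. The clusters nearest 1810055G02Rik and Gnaz, the latter coding for a G protein alpha subunit, had 6 summits each, and each summit held a motif. Near 1810055G02Rik 2 of the 6 were at a promoter, and near Gnaz 0 were. Their motifs were 2 on the plus and 4 on the minus strand near 1810055G02Rik, and the reverse, 4 and 2, near Gnaz. Of the 6 motif sites near 1810055G02Rik 4 were in marked repeats, and of those near Gnaz 0 were.

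The 5 clusters with the highest median signal had 4 summits each and held 3 or 4 motifs. The highest median, 463, was at chr5:125268257-125271711, 69.383 kb from the nearest protein-coding start, that of Scarb1, the HDL receptor. Its signals were 483, 65.4, 463 and 464, so 3 summits were strong and the second weak. Ap5b1, an adaptor protein subunit, had 47.6, 567, 457 and 413, and its 3 strong summits were promoter sites with minus-strand motifs. Plin1, the lipid droplet protein of fat cells, had 333, 453, 431 and 110. Pdzd7, a scaffold of hair cell stereocilia, had 372, 371, 387 and 162. The cluster nearest Myzap, a protein of cardiac cell junctions, had 383, 317, 503 and 274 and 4 minus-strand motifs.

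Each of these 5 clusters had 4 summits in either replicate alone and in the conservative list. All but the first summit at Ap5b1 held a motif.

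Few genes had a cluster nearby. A TSS within 10 kb of a cluster was found for 442 of 20807 protein-coding genes, 2.12%. The lists below were chosen with results of these data known and their small counts are given as a description. Of 24 intestinal epithelial transcription factors 1 was near a cluster, Vdr, the vitamin D receptor. Of 26 enterocyte genes 1 was, Espn, an actin bundler of microvilli. Of 21 crypt stem cell and Wnt genes 1 was, Myc, the growth regulator. None of 24 secretory lineage genes, 14 apolipoprotein genes and 20 enteric neuron and glia genes was.

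The Vdr cluster lay beyond the 3' end of the gene and was intergenic throughout. Vdr is on the minus strand and runs from 97854425 to 97910630. The annotated Vdr start 5.445 kb from the cluster is a transcript start inside the gene. The nearest protein-coding gene start was that of Hdac7. The signals of the cluster were 118, 394, 211, 20.6 and 55.7, and 4 of the 5 summits held a motif. This cluster had 5 summits with replicate 2 left out and 3 with replicate 1 left out. The Espn cluster had signals of 108, 183, 96.4 and 318 and 2 motifs. At Myc all 4 summits were at promoters, with signals of 350, 126, 183 and 227. The first and the last, the 2 strongest, held a plus-strand motif.

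Among 22 smooth muscle and mesenchyme genes 2 were near a cluster, Pdgfra and Gli1, the effector of hedgehog signalling. Of 29 hedgehog, Bmp and Notch pathway genes Gli1 and Id2, an inhibitor of basic helix-loop-helix factors, were. The Gli1 cluster lay at the 3' part of the gene with signals of 21.4, 12.4, 78.6 and 130. Its 2 stronger summits held motifs 89.5% identical to each other, both in marked repeats. At Id2 the signals were 18.9, 13.5, 65.2 and 17.4, all under the median of the list. Either replicate alone left no run of 2 or more summits at Id2, and 2 and 3 summits at Gli1 with replicate 1 and replicate 2 left out. In the conservative list the runs had 3 summits at Id2 and 2 at Gli1.

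Of 22 blood and immune genes 1 was near a cluster, Cd79a, a chain of the B-cell receptor, 6.927 kb away. That cluster lay inside the neighbouring gene Arhgef1, with signals of 318, 363, 35.3 and 43.0. Of 24 genes of other organs 1 was, Myod1, the muscle determination factor, whose 4 summits with signals of 135, 98.9, 197 and 63.5 all held a motif.

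Of 38 imprinted genes 3 were near a cluster, H19 and the neighbours Peg3 and Usp29, 7.89% of the list. The share was 2.12% over protein-coding genes and 1.26% over all annotated genes, noncoding ones included. No test was made on these small counts. Peg3, a paternally expressed zinc-finger gene, and Usp29 shared a cluster at chr7:6727408-6730345 with signals of 127, 71.5, 119 and 64.5. Its first 3 summits held a motif, on the minus, minus and plus strands, and the last, at the promoter, did not. The H19 cluster had 5 summits in the conservative list and with either replicate left out. The Peg3 and Usp29 cluster had 4 in the conservative list, 4 with replicate 1 left out and 5 with replicate 2 left out.

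For large gene families the shares are set beside the 2.12% of all protein-coding genes. Of 80 ribosomal protein genes 2 were near a cluster, Rpl18 and Rps16, and of 67 histone genes 2 were, Hist1h1t and Hist1h4c, at the same cluster. Rpl18 had signals of 48.8, 36.2, 75.9, 41.9 and 70.7, none of them above the median of the list, and 1 motif among 5 summits. The histone cluster had 354, 47.8, 31.7 and 420, and its outer summits were the strong ones. Of 358 zinc finger genes 6 were near a cluster (1.68%) and of 321 solute carrier genes 10 (3.12%). None of 1086 olfactory receptor genes, 39 Hox genes, 49 keratin genes and 17 cohesin and CTCF genes was.

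Among the zinc finger genes, Zfp647 had 5 summits with signals of 108, 30.2, 36.5, 44.3 and 374, the outer ones strong. The clusters at Zfp91, Zfp423 and Zfp703 had 4 summits each, with 2, 2 and 1 motifs. The Zfp423 run had 3 summits in the conservative list and 2 with replicate 1 left out, and those at Zfp91 and Zfp703 had 4 in both. Among solute carriers, Slc25a10, the mitochondrial dicarboxylate carrier, had a motif at all 4 summits, with signals of 34.2, 433, 44.3 and 194. Slc12a5, the neuronal chloride exporter, Slc39a5, a zinc transporter, and Slc17a7, a glutamate transporter of synaptic vesicles, had 3, 2 and 2 motifs at 4 summits each. The clusters counted for these 3 lay 7.356, 7.385 and 8.587 kb from the genes' starts and overlapped other genes. The Slc39a5 run had 3 summits in the conservative list and with either replicate left out, and was then no cluster.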

How the data were processed

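CTCF ChIP-seq peak lists on mm10 were used for 2 libraries of 1 group. The sources used here do not give the aligner, peak caller, versions or threshold of the irreproducible discovery rate (IDR). The peak signal was deposited by the authors, and its normalization is not given in the sources used here. The summit is the peak start plus the offset the authors deposited. The optimal and conservative lists come from both replicates and a pooled list, per the deposited notes. Columns of per-sample values not used numbered 0.

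Summits were chained, and clusters kept, by the stated rule. The members and gene lists were chosen with earlier results of these data known. Classes came from GENCODE M21, with a promoter as 1 kb around any TSS. Chromosome lengths of the reference were compared with the lists first. A 19-base matrix was trained on the 5000 strongest peaks outside clusters on even chromosomes. Training started from a fixed CTCF consensus and took 6 rounds with a pseudocount of 1. The score threshold, 9.53, was reached by 5% of windows 1 kb from the summit. Named clusters were the 10 with most summits, the 5 with the highest median signal, the 5 with most motif summits and, per list, up to 4 genes within 10 kb of a cluster. Clusters chosen by summits, signal or motifs take the names of overlapping protein-coding genes or of the nearest protein-coding start. Clusters chosen from a gene list take the name of the listed gene, which need not overlap the cluster or be the nearest. A cluster was found again where a replicate's cluster overlapped it.

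Other settings tried were each replicate alone (its strongest 73465 peaks), the conservative list, only peaks with a signal over the median, and other gaps, sizes, windows and thresholds. Chaining, motif calls and promoter shares were tested on simulated data. Python 3.11.15, numpy 2.4.6, pandas 2.3.3, scipy 1.17.1, numba 0.67.0 and matplotlib 3.10.9 were used.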

Additional observations from a re-analysis of the deposited data

Results flagged for a closer look

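Chromosome X, which the choice of clusters left out, also held clusters: 11 of its 1695 summits (0.649%) lay in 2 runs of 4 or more. No control samples were used here, and the lists give no counts to set a floor. At chrX:140598679-140600943, over Tsc22d3, 4 summits had signals from 16.4 to 222 and 2 of them held a motif. At chrX:170018040-170022314, over Gm21887, 7 summits had signals from 25.9 to 347 and 4 of them held a motif.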

How the results depend on the processing

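The number of clusters, 356, was 269 in the conservative list, 267 without summits under 300 bases apart, and 345 to 350 with a replicate left out. It moved by more than 1.5 times for peaks above the median signal (28), gaps of 1 kb (61) and 3 kb (751), and fewest members of 3 (1514) and 5 (73). The promoter share of 46.7% was 42.6% in the conservative list, 24.0% for peaks above the median signal, 68.1% and 38.0% at gaps of 1 kb and 3 kb, 43.2% with 3 members, 40.9% without summits under 300 bases apart, 19.6% and 77.2% at windows of 200 bases and 5 kb, 42.2% for protein-coding TSSs, and 43.0% to 43.9% with a replicate left out. The motif share of 55.7% was in the same order 60.4%, 79.3%, 43.3%, 62.5%, 59.8% and 61.7%. It was 27.0% at the 1% threshold, 52.5% within 50 bases, 48.3% by the words and 58.5% to 59.6% with a replicate left out. Under every one of these settings the promoter share was above that of the other summits and the motif share, where both were computed, below it. For peaks above the median signal, with 24.0% against 19.9% and 79.3% against 85.9%, the intervals met. The tandem share of 52.7% was 68.9% for peaks above the median signal, 59.2% with 5 members, 57.6% at the 1% threshold and 51.4% to 52.6% with a replicate left out. Clusters found again in both replicates were 48.0%. By a different criterion the share was 75.6%: 4 or more summits matched within 100 bases among all 300000 peaks of each replicate, with no replicate cluster required. The cause of each shift was not tested, beyond the fewer or more summits that a setting takes. Dropping summits under 100 bases apart changed nothing, as no gap was so short. Of 39 named clusters 32 had 4 or more summits in the conservative list, 33 with replicate 1 left out, 34 with replicate 2 left out and 30 in all of these. Counts of list genes near a cluster were within 1.5 times in 22 of 46 alternatives. No paired analysis was possible because there is only 1 group. Without read counts, whether a weak summit is under-sampled cannot be told apart from weak binding.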
